A study of Mus musculus with 12 samples.

Results

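Toll-like receptor and NF-kB genes were described in myeloid cells of the mammary gland, sorted from lean mice and from obese mice. The 10 genes were taken by symbol from the 760 genes of the deposited expression table: Cd14, Tlr2, Tlr4, Myd88, Ikbkb, Nfkb1, Rela, Relb, Nlrp3 and Icam1. All 10 were found, and all 10 passed the filter on low values, which kept 594 of the 760 genes (those reaching 20 in linear units in 3 or more samples). RNA was counted with the NanoString nCounter mouse Fibrosis V2 panel, in which barcoded probes count target RNAs, after low-input amplification. Female FVB/N mice, with no further alteration named in the labels, ate from 3 weeks of age either the Teklad Global 2920X low-fat diet or the Test Diet 58Y1 high-fat diet, 3 mice per diet, and tissue was taken after 16 weeks. All samples shared a collagenase treatment of 1 hour. Live CD45+ CD11b+ cells were sorted into CD34+ cells, called myeloid progenitors in the labels, and CD34- cells, called monocytes and macrophages there. This gave 4 groups of 3 samples each. The design asked how obesity altered gene expression in these cells. Samples are named by a number within each group, and p-values measure the spread between these few samples. Unless a block on the mouse is named, the fit did not link samples of the same number. The labels do not state that same-numbered samples of a diet come from the same mouse. Every block on the mouse rests on that reading of the numbers.

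Toll-like receptors sit in the membranes of innate immune cells and bind molecules of microbes and of damaged tissue. Through the adaptor MyD88 they activate the IkB kinase complex, which marks the inhibitors of NF-kB for destruction, and NF-kB dimers then enter the nucleus and switch on genes of inflammation and adhesion. A separate, slower branch works through RelB. In fat tissue, macrophages carrying these receptors are studied for their part in the inflammation that accompanies obesity.

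Total counts recovered from the deposited log2 values ranged from 78316 to 780070 per sample, and the counts of the 10 genes ranged from 12 to 11110. The shallowest library, replicate 3 of the low-fat CD34- group, held the 12 counts, of Tlr4 (exact Poisson 95% interval 6.2 to 20.96, which covers counting error only). High-fat CD34+ replicate 2 stood apart from its group in summed fibroblast genes, whose range in that group was 571 to 5090 in linear units, and results were also computed without both libraries. The 3 mast cell markers on the panel summed to 12.5 to 1340 in low-fat CD34+ cells and 22.3 to 90.1 in high-fat CD34+ cells. In CD34- cells they summed to 16 to 72.1 on the low-fat and 36.9 to 47.8 on the high-fat diet. The part of mast cells in the differences of the 10 genes was not tested. The sort marker's own gene, Cd34, showed a log2 difference of CD34- minus CD34+ cells of -1.68 on the low-fat diet (limma adjusted p = 0.0475) and of -0.34 on the high-fat diet (limma adjusted p = 0.707). Ptprc, the gene of CD45, had group means of at least 10.98 on the log2 scale (CD11b's gene, Itgam, is not analysed here). Of 4 monocyte and macrophage markers on the panel (Cd68, Csf1r, Cd163 and Ccr2), none was at 0 in a group mean, and Cd163 was the lowest, at 3.84 in low-fat CD34- cells. Markers of T and NK cells were present in cells gated on CD11b: the 12 on the panel summed to 3620 to 17300 in low-fat CD34- cells and 1450 to 2730 in low-fat CD34+ cells, and to 3660 to 7070 and 443 to 1440 on the high-fat diet. In RNA of whole sorted populations, fewer cells of a type and less RNA per cell cannot be told apart.

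**Figure D1:**
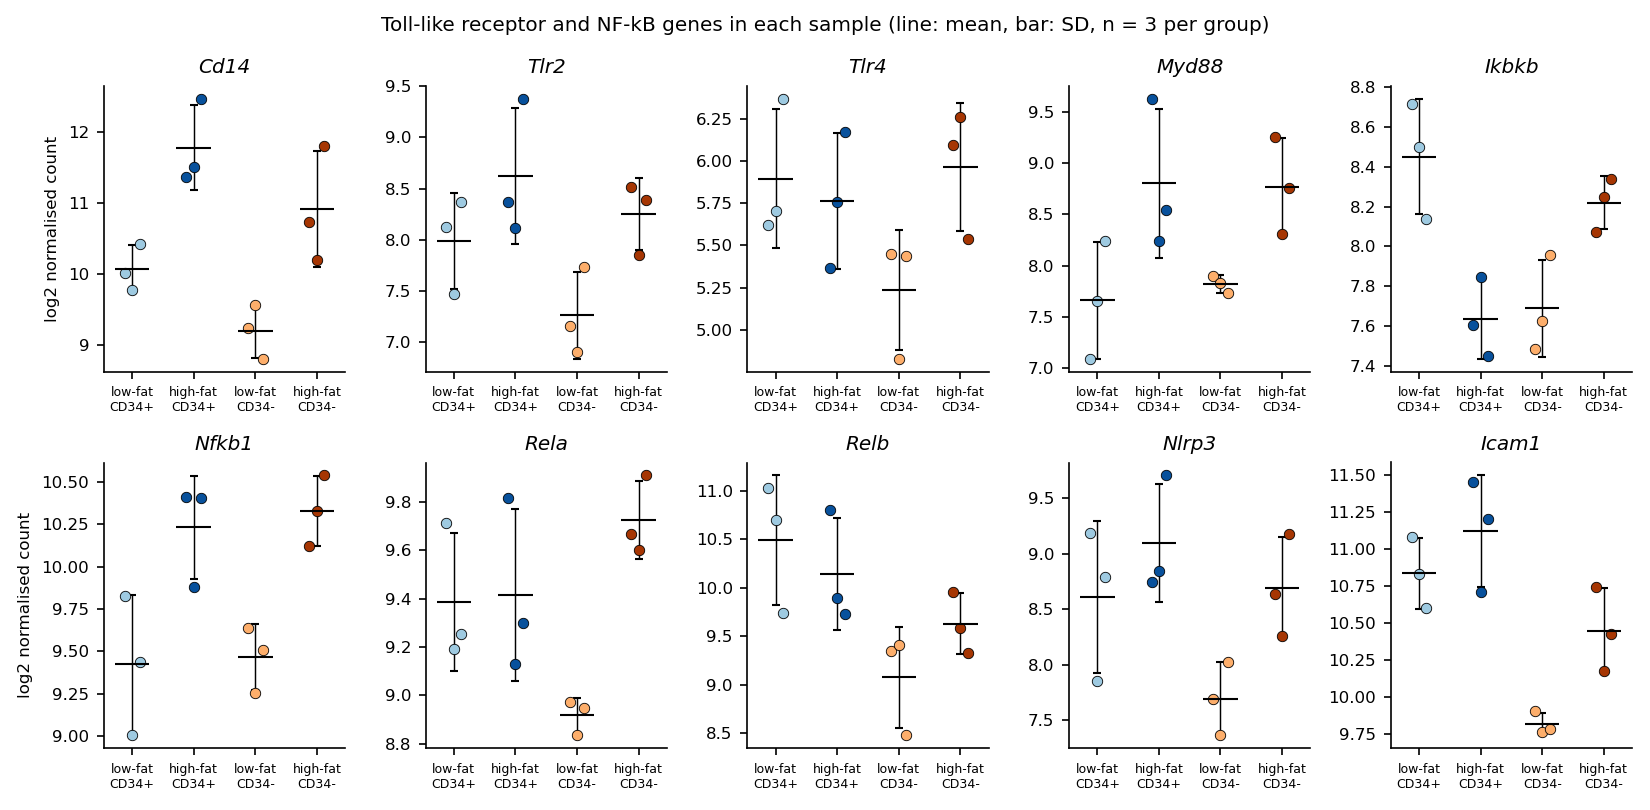
Log2 normalised counts of the 10 genes (vertical axis, a separate scale per gene) in each of the 12 samples, by diet and population. Points are samples, horizontal lines are group means and bars are SD (n = 3). Cd14 separates the diets within each population, and Ikbkb is lowest in high-fat CD34+ cells, with a mean of 7.63.

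Cd14 was higher on the high-fat than on the low-fat diet in both populations, and by nearly the same amount. It encodes the co-receptor that hands bacterial lipopolysaccharide to TLR4. In CD34+ cells the 3 low-fat samples stood at 10.01, 9.78 and 10.42 log2 normalised counts and the 3 high-fat samples at 11.36, 11.51 and 12.46. In CD34- cells the low-fat samples stood at 9.23, 9.56 and 8.80 and the high-fat samples at 10.73, 10.20 and 11.79. The diets did not overlap in either population. The difference was 3.26-fold in CD34+ cells (log2 1.70 ± 0.39 SE, limma adjusted p = 0.0409) and 3.27-fold in CD34- cells (log2 1.71 ± 0.39, limma adjusted p = 0.0209), and the CD34- sample was the lower one in 6 of 6 same-numbered pairs. The diet changes of the populations differed by 0.01 ± 0.55 (limma adjusted p = 0.998). By group means the order was high-fat CD34+ (11.77 ± 0.60 SD), high-fat CD34- (10.91 ± 0.81), low-fat CD34+ (10.07 ± 0.33) and low-fat CD34- (9.20 ± 0.38). High-fat CD34- samples overlapped both neighbours in this order, while the low-fat groups did not overlap each other.

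Both Cd14 calls were close to the threshold. In CD34+ cells the limma adjusted p exceeded 0.05 without high-fat CD34+ replicate 3 (log2 1.36, 0.144) or replicate 1 (1.91, 0.142), and without low-fat CD34+ replicate 1 (1.67, 0.132) or replicate 2 (1.56, 0.153). It was also above 0.05 without high-fat CD34- replicate 1 (0.0674) or low-fat CD34- replicates 1 (0.0589) or 2 (0.0528), which enter only the estimate of spread. For CD34- cells it exceeded 0.05 without high-fat CD34- replicates 1 (log2 1.80, 0.079) or 3 (1.27, 0.117) and without low-fat CD34- replicates 1 (1.73, 0.0648), 2 (1.89, 0.0592) or 3 (1.51, 0.0632). Re-centring each sample on its median left log2 differences of 1.72 (limma adjusted p = 0.0717) in CD34+ cells and 1.39 (0.172) in CD34- cells, so that neither passed, and quantile normalization gave 1.41 (0.153) and 1.46 (0.197). On the high-fat diet the population difference of Cd14, -0.87 ± 0.39 (limma adjusted p = 0.197), passed without high-fat CD34- replicate 3 (-1.31, 0.0408).

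Tlr2 and Tlr4 encode receptors for bacterial lipoproteins and lipopolysaccharide, and neither passed the test in a diet comparison. In CD34- cells Tlr2 stood at 7.15, 6.90 and 7.73 on the low-fat diet and at 8.52, 7.85 and 8.38 on the high-fat diet. These ranges did not overlap, and the log2 difference was 0.99 ± 0.37 (limma adjusted p = 0.127). The CD34+ ranges did overlap, with values of 8.13, 7.47 and 8.37 against 8.37, 8.12 and 9.38 (0.63 ± 0.37, limma adjusted p = 0.392). Tlr2 means ran in the order high-fat CD34+ (8.62 ± 0.66 SD), high-fat CD34- (8.25 ± 0.35), low-fat CD34+ (7.99 ± 0.47) and low-fat CD34- (7.26 ± 0.43), and each neighbouring pair overlapped. Tlr4 counts were low throughout, from 12 to 142. In CD34- cells Tlr4 stood at 5.45, 4.83 and 5.43 on the low-fat diet and at 6.09, 6.26 and 5.54 on the high-fat diet (0.73 ± 0.37, limma adjusted p = 0.272). For CD34+ cells the low-fat values of 5.62, 5.70 and 6.37 and the high-fat values of 5.36, 5.76 and 6.17 lay in one range (-0.13 ± 0.37, limma adjusted p = 0.888). The highest Tlr4 mean was that of high-fat CD34- cells (5.96 ± 0.38 SD), followed by low-fat CD34+ (5.89 ± 0.41), high-fat CD34+ (5.76 ± 0.40) and low-fat CD34- cells (5.24 ± 0.35). Among these, the first 3 groups overlapped one another.

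Myd88, the adaptor gene, passed no test, with diet differences close to 1 log2 unit in both populations. Its CD34- samples stood at 7.90, 7.83 and 7.73 on the low-fat diet and at 9.25, 8.31 and 8.75 on the high-fat diet, without overlap (0.95 ± 0.38, limma adjusted p = 0.159). Among CD34+ samples the low-fat values were 7.10, 7.66 and 8.24 and the high-fat values 9.62, 8.24 and 8.54 (1.14 ± 0.38, limma adjusted p = 0.138). There the lowest high-fat and the highest low-fat sample met at 8.24. The populations were close on each diet, with a difference of -0.03 ± 0.38 on the high-fat diet and 0.16 ± 0.38 on the low-fat diet (limma adjusted p = 0.97 and 0.881). Group means were 8.80 ± 0.73 (SD) and 8.77 ± 0.47 in high-fat CD34+ and CD34- cells and 7.66 ± 0.57 and 7.82 ± 0.09 in low-fat CD34+ and CD34- cells.

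Ikbkb, which encodes the catalytic IkB kinase beta, was the only one of the 10 genes whose diet groups separated in opposite directions in the populations. In CD34+ cells it stood at 8.71, 8.50 and 8.14 on the low-fat diet and at 7.61, 7.85 and 7.45 on the high-fat diet. Its CD34- samples were at 7.48, 7.63 and 7.96 on the low-fat diet and at 8.07, 8.25 and 8.34 on the high-fat diet. Every high-fat sample was below every low-fat sample in CD34+ cells and above every low-fat sample in CD34- cells. Neither diet change passed, at -0.82 ± 0.24 (limma adjusted p = 0.106) in CD34+ cells and 0.53 ± 0.24 (0.223) in CD34- cells. Seen across populations, Ikbkb was lower in the CD34- sample in 3 of 3 low-fat pairs and higher in 3 of 3 high-fat pairs. The low-fat population difference of -0.76 ± 0.24 (limma adjusted p = 0.0655) passed without low-fat CD34- replicate 3, the shallowest library (-0.90, 0.0455). The means were 8.45 ± 0.29 (SD) in low-fat CD34+, 8.22 ± 0.13 in high-fat CD34-, 7.69 ± 0.24 in low-fat CD34- and 7.63 ± 0.20 in high-fat CD34+ cells. The 2 highest of these groups overlapped, as did the 2 lowest.

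The test of the difference between the Ikbkb diet changes depended on how mice and scaling were handled. The diet change in CD34- cells minus that in CD34+ cells was 1.35 ± 0.34 (unadjusted p = 0.00169, limma adjusted p = 0.334). Blocking on the mouse gave a limma adjusted p of 0.0431, and with the block and each sample re-centred the difference was 1.02 (0.477). Limma called 0 of 594 genes for this difference (0% of genes tested) and 0 of the 10, while 8.75% of all genes tested and 2 of the 10, Ikbkb and Rela, were higher at an unadjusted p under 0.05. With the mouse as a block 1.18% of genes passed, among them 1 of the 10, Ikbkb.

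**Figure D2:**
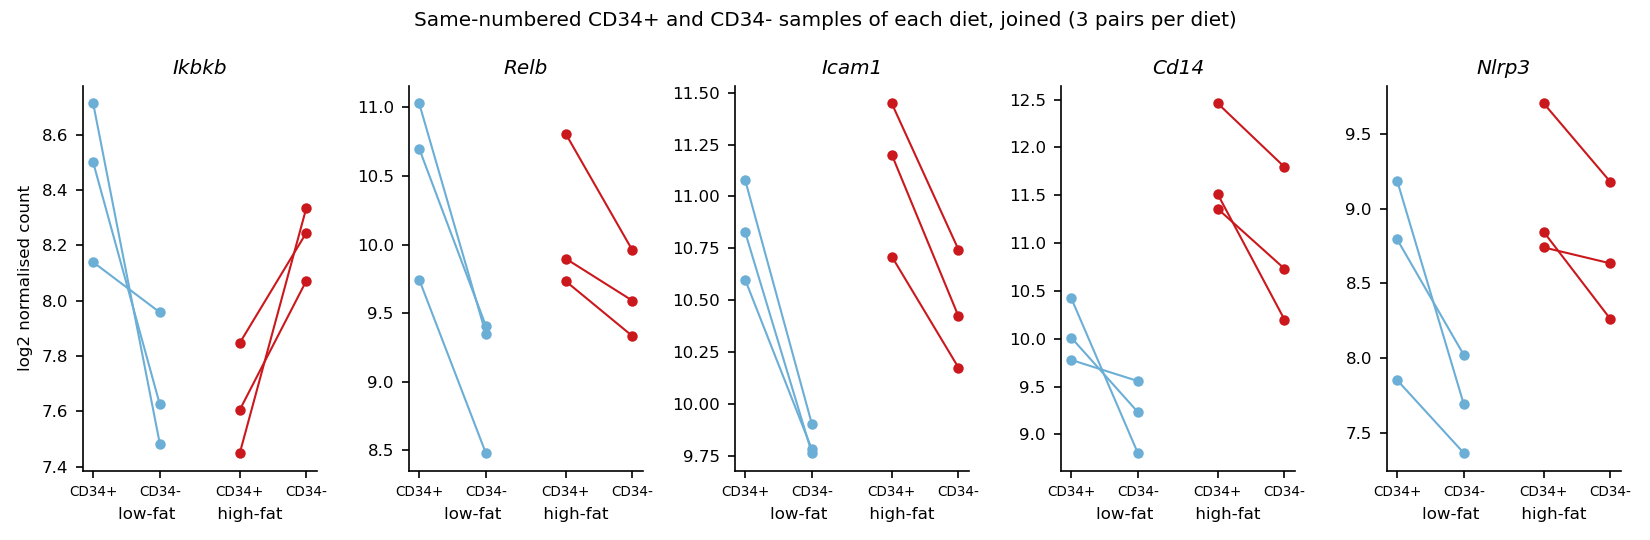
Log2 normalised counts (vertical axis, a separate scale per gene) of 5 genes in CD34+ and CD34- samples of the same number, joined by lines, for the low-fat diet in blue and the high-fat diet in red (3 pairs each). Ikbkb lines slope down in 3 of 3 low-fat pairs and up in 3 of 3 high-fat pairs, while Relb, Icam1, Cd14 and Nlrp3 lines slope down in 6 of 6.

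Nfkb1 and Rela encode the p50 precursor and p65, which together form the common NF-kB dimer. Nfkb1 in CD34- cells stood at 9.64, 9.26 and 9.51 on the low-fat diet and at 10.12, 10.33 and 10.54 on the high-fat diet, and in CD34+ cells at 9.83, 9.01 and 9.44 against 10.41, 9.88 and 10.40. High-fat samples were above low-fat samples of the same population without overlap. The differences of 0.86 ± 0.25 (limma adjusted p = 0.0657) and 0.81 ± 0.25 (0.108) did not pass. The former passed without either high-fat CD34+ replicate 2 or low-fat CD34+ replicate 2 (limma adjusted p = 0.0469 in each case). The populations had similar Nfkb1 means, at 10.33 ± 0.21 (SD) and 10.23 ± 0.30 in high-fat CD34- and CD34+ cells and 9.47 ± 0.19 and 9.42 ± 0.41 in low-fat CD34- and CD34+ cells. Rela in CD34- cells stood at 8.97, 8.84 and 8.95 on the low-fat diet and at 9.67, 9.60 and 9.91 on the high-fat diet, also without overlap (0.81 ± 0.23, limma adjusted p = 0.0657, or 0.0452 without high-fat CD34+ replicate 1). The CD34+ values of Rela were 9.71, 9.19 and 9.26 against 9.81, 9.13 and 9.30, a difference of 0.03 ± 0.23 (limma adjusted p = 0.957). The Rela diet changes of the populations differed by 0.78 ± 0.33, at an unadjusted p of 0.0335 (limma adjusted p = 0.546). Mean Rela was 9.72 ± 0.16 (SD) in high-fat CD34-, 9.41 ± 0.36 in high-fat CD34+, 9.39 ± 0.28 in low-fat CD34+ and 8.92 ± 0.07 in low-fat CD34- cells, and only the last did not overlap its neighbour.

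Relb, the subunit of the slower branch, passed in the population comparison of lean mice, with less in CD34- cells. Low-fat CD34- samples stood at 9.35, 9.41 and 8.48 and low-fat CD34+ samples at 11.03, 10.70 and 9.74, without overlap. The difference was 2.66-fold (log2 -1.41 ± 0.38, limma adjusted p = 0.0294). On the high-fat diet the values were 9.96, 9.59 and 9.33 in CD34- and 10.81, 9.90 and 9.73 in CD34+ cells, which overlapped (-0.52 ± 0.38, limma adjusted p = 0.435), although the CD34- sample was lower in 3 of 3 pairs. The population differences on the diets differed by 0.89 ± 0.53 (limma adjusted p = 0.666). The low-fat call ended without CD34+ replicates 1 (log2 -1.14, limma adjusted p = 0.139) or 2 (-1.31, 0.0876), and without CD34- replicates 1 (-1.55, 0.0564) or 3 (-1.11, 0.0959). Re-centring (-1.36, 0.0903) and quantile normalization (-1.21, 0.134) ended it too. Relb means descended from low-fat CD34+ (10.49 ± 0.67 SD) through high-fat CD34+ (10.15 ± 0.58) and high-fat CD34- (9.63 ± 0.31) to low-fat CD34- cells (9.08 ± 0.52), and each group overlapped the next. In the diet comparisons Relb differed by -0.35 ± 0.38 in CD34+ and 0.55 ± 0.38 in CD34- cells (limma adjusted p = 0.672 and 0.437).

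Icam1 encodes an adhesion molecule that binds leukocyte integrins and is a known NF-kB target, and Nlrp3 encodes the sensor of an inflammasome whose expression NF-kB primes. Promoter sequences from RefSeq on the mouse build GRCm38.p6 were matched for 5 of the 10 genes, as 6 promoters. These come from the reference strain C57BL/6J and not from FVB/N. A narrow form of the kappa B motif, GGNNTTTCC, was searched on both strands in the 250 bases before the start site. This form was found in 3 of the 6 promoters, those of Icam1 and both of Nlrp3. It occurs in 4.93% of 32851 promoters of the same length. Other forms of the motif were not searched, so a promoter without a match here may still hold one. The 3 promoters are shown because they hold this form, with each match in capitals.
Icam1, chr9:21015690-21015939, plus strand: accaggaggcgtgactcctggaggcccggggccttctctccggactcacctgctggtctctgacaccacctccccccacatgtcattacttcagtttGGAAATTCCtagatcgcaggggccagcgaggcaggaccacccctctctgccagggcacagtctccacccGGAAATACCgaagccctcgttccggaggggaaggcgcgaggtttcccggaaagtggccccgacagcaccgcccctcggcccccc
Nlrp3, chr11:59542436-59542685, plus strand: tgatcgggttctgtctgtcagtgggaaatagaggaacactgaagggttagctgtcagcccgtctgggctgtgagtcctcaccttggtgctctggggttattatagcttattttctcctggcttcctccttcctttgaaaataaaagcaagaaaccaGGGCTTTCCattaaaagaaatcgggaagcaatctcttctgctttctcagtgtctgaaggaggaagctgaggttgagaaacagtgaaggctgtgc
Nlrp3 at its other start, chr11:59541319-59541568, plus strand: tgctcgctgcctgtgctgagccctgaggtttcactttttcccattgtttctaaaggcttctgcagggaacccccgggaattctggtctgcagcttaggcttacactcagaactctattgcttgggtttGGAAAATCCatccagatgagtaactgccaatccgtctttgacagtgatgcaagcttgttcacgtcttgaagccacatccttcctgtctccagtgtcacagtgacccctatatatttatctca
In Icam1 the matches GGAAATTCC and GGAAATACC began 153 and 84 bases before the start. In Nlrp3 GGGCTTTCC began 94 and GGAAAATCC 122 bases before the respective start. The motif GAAANNGAA, the core of an interferon-stimulated element, was found in 1 promoter, that of Myd88, 40 bases before the start, against 7.13% of all promoters. GAGGAAGT, a core recognised by the myeloid factor PU.1, was found in none of the 6 and in 2.44% of all. Such matches describe letters in these windows and were not measured as binding.

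Icam1 likewise passed in lean mice, with less in CD34- cells. Low-fat CD34- samples stood at 9.90, 9.76 and 9.78 and CD34+ samples at 11.08, 10.83 and 10.60, without overlap. The difference was 2.03-fold (log2 -1.02 ± 0.23, limma adjusted p = 0.0161). The call ended without low-fat CD34+ replicate 1 (log2 -0.90, limma adjusted p = 0.0791) or low-fat CD34- replicate 2 (-0.99, 0.0509), and with re-centring (-0.97, 0.0715). On the high-fat diet the values were 10.74, 10.17 and 10.42 in CD34- and 11.45, 10.71 and 11.20 in CD34+ cells. There the groups overlapped in 1 sample each, the CD34- sample was lower in 3 of 3 pairs, and the difference was -0.67 ± 0.23 (limma adjusted p = 0.0913, or 0.00844 when blocked on the mouse). Without high-fat CD34+ replicate 2 it passed (-0.88, limma adjusted p = 0.0371). The diet difference of Icam1 was 0.63 ± 0.23 in CD34- cells (limma adjusted p = 0.127), where the diets did not overlap, and 0.29 ± 0.23 in CD34+ cells (0.575), where they did. Its group means descended from high-fat CD34+ (11.12 ± 0.38 SD) through low-fat CD34+ (10.83 ± 0.24) and high-fat CD34- (10.45 ± 0.29) to low-fat CD34- cells (9.82 ± 0.08), and only the last group did not overlap its neighbour.

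Nlrp3 in CD34- cells stood at 7.69, 7.36 and 8.02 on the low-fat diet and at 8.63, 8.26 and 9.18 on the high-fat diet, without overlap. The difference was 1.00 ± 0.38 (limma adjusted p = 0.128). In CD34+ samples Nlrp3 stood at 9.19, 7.85 and 8.79 against 8.74, 8.84 and 9.70 and overlapped (0.49 ± 0.38, limma adjusted p = 0.551). Nlrp3 was lower in the CD34- sample of 6 of 6 pairs. The population difference was -0.92 ± 0.38 on the low-fat diet (limma adjusted p = 0.152, or 0.0188 when blocked on the mouse, or 0.043 without low-fat CD34+ replicate 2) and -0.41 ± 0.38 on the high-fat diet (0.537). Its lowest mean was that of low-fat CD34- cells (7.69 ± 0.33 SD), against 8.61 ± 0.69 in low-fat CD34+, 8.69 ± 0.46 in high-fat CD34- and 9.10 ± 0.53 in high-fat CD34+ cells.

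Over the 10 genes, the diet differences were above 0 in 10 of 10 in CD34- cells and in 7 of 10 in CD34+ cells, and few passed the test. In CD34- cells 1 of the 10 passed, Cd14, where 5.05% of all 594 genes passed. At an unadjusted p under 0.05, 8 of the 10 were higher on the high-fat diet, against 21.5% of all genes, and 9 of the 10 did not overlap between the diets in that direction, against 28.3%. Of all genes tested, 77.9% had a difference above 0. The median difference of the 10 was 0.83 on the log2 scale against 0.35 over all genes, and all 10 lay above the latter. Without the shallowest library and high-fat CD34+ replicate 2, all 10 remained above 0, with a median of 0.85. They also did with quantile normalization (median 0.53) and with each sample re-centred (0.52). The authors' deposited table for the diet comparison in CD34- cells lists 117 genes by a rule not given in the sources used here. That number equals 19.7% of the genes tested. The table holds 7 of the 10: Tlr2, Tlr4, Cd14, Nfkb1, Rela, Nlrp3 and Icam1, all in its cluster 1. It was drawn from these same data. The authors' tables for the other 3 comparisons, of 135, 31 and 7 genes (22.7%, 5.22% and 1.18%), hold 0 of the 10.

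In CD34+ cells 1 of the 10 passed in the diet comparison, again Cd14, where 2.36% of all genes passed. Higher on the high-fat diet at an unadjusted p under 0.05 were 3 of the 10 (Cd14, Myd88 and Nfkb1), against 9.6% of all genes. The same 3 did not overlap between the diets, against 8.42%. Ikbkb was lower (limma unadjusted p = 0.00499) and did not overlap in that direction, for which the share over all genes was not counted. For Myd88 the separation was minimal, with the lowest high-fat sample at 8.2375 and the highest low-fat sample at 8.2366. The 10 differences had a median of 0.39 against -0.01 over all genes, and 7 of the 10 were above 0, against 49.3% of all genes. With quantile normalization only 5 of the 10 were above 0, with a median of 0.07. With each sample re-centred 7 were, with a median of 0.40. With both the shallowest library and high-fat CD34+ replicate 2 left out, limma called 9.28% of all 582 genes then tested and 4 of the 10 in these cells: Cd14 (adjusted p = 0.0222), Myd88 (0.0443) and Nfkb1 (0.0402), which were higher on the high-fat diet, and Ikbkb (0.0441), which was lower.

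**Figure D3:**
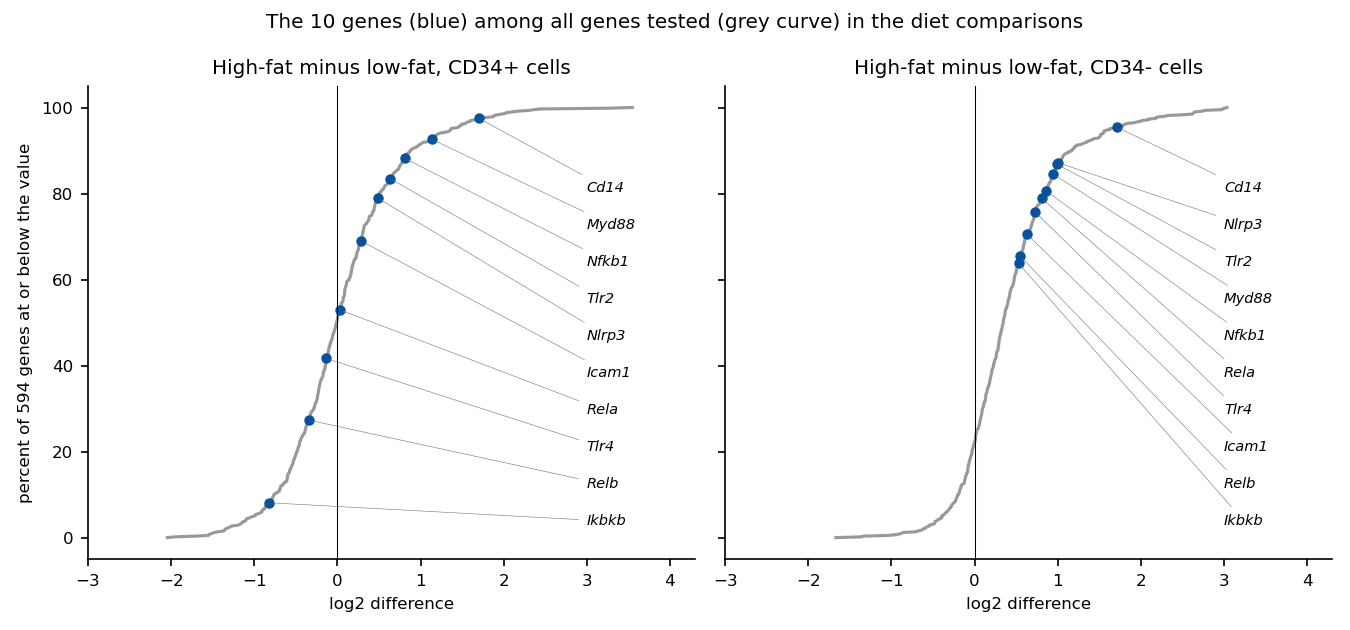
Log2 difference between diets (horizontal axis) against the percent of the 594 genes tested at or below that difference (vertical axis), in CD34+ cells on the left and CD34- cells on the right. Blue points are the 10 genes and the grey curve is all genes. All 10 points lie to the right of 0 in CD34- cells, against 7 of 10 in CD34+ cells.

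Cell-type markers changed between the diets alongside these genes. In CD34- cells 2 of the 4 monocyte and macrophage markers were higher on the high-fat diet, Csf1r (1.43, limma adjusted p = 0.0119) and Cd163 (1.55, 0.0337), and the 4 summed to 2320 to 2940 in low-fat and 4120 to 5750 in high-fat samples. In CD34+ cells limma called 0 of the 4 (2 were higher at an unadjusted p under 0.05), and the sums of 2410 to 5620 and 4690 to 6770 overlapped. The neutrophil marker Fpr1 (2.18, limma adjusted p = 0.0172), 1 of 4 on the panel, and the fibroblast gene Col3a1 (2.76, 0.0172), 1 of 4 tested, were also higher in high-fat CD34- cells. Of 3 endothelial markers tested limma called 0, all 3 were higher in those cells at an unadjusted p under 0.05, and the 4 on the panel summed to 127 to 245 in low-fat and 295 to 441 in high-fat samples. The 4 neutrophil markers summed to 136 to 433 in low-fat and 289 to 354 in high-fat CD34- cells, and the 5 fibroblast markers to 43.6 to 93.7 and 177 to 275. Of 2 fat cell markers tested, Fabp4, also of macrophages, was higher in high-fat cells of both populations (1.89 in CD34+ and 2.75 in CD34- cells, limma adjusted p = 0.0409 and 0.0049). The other, Adipoq, did not pass and differed by -1.10 in CD34+ and 0.99 in CD34- cells (limma adjusted p = 0.392 and 0.398). The dendritic cell marker Ccr7 was lower in high-fat CD34+ cells (-1.13, limma adjusted p = 0.0281), the other, H2-Ab1, differed by 0.20 (0.8), and both summed to 10400 to 14100 in low-fat and 7660 to 15500 in high-fat samples. Limma called 0 of 12 T and NK cell and 0 of 3 B cell markers in CD34+ cells, where 5 and 2 were lower on the high-fat diet at an unadjusted p under 0.05. The 3 B cell markers summed to 205 to 289 in low-fat and 29.4 to 150 in high-fat CD34+ samples. The part of these cell types in the differences of the 10 genes was not tested.

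Between the populations, 2 of the 10 passed on the low-fat diet (Relb and Icam1), where 9.76% of all genes passed, and 0 of the 10 on the high-fat diet, where 8.92% passed. On the low-fat diet 5 of the 10 were lower in CD34- cells at an unadjusted p under 0.05 (Cd14, Relb, Ikbkb, Nlrp3 and Icam1), against 17% of all genes, and 6 of the 10 did not overlap in that direction (Cd14, Tlr4, Ikbkb, Rela, Relb and Icam1), against 18.9%. On the high-fat diet 2 of the 10 were lower in CD34- cells at an unadjusted p under 0.05 (Cd14 and Icam1), against 7.58%, and 0 of the 10 were lower without overlap, against 8.42%. Ikbkb was higher in CD34- cells there without overlap (unadjusted p = 0.0316). The median difference of the 10 was -0.74 on the low-fat diet and -0.20 on the high-fat diet, beside -0.14 and 0.21 over all genes.

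With the inferred mouse as a block, which compares the populations within same-numbered pairs, more genes passed. On the low-fat diet these were 22.1% of all genes and 5 of the 10: Icam1 (limma adjusted p = 0.000512), Relb (0.000907), Ikbkb (0.0134), Nlrp3 (0.0188) and Cd14 (0.0354), each below its CD34+ level. For the high-fat diet they were 23.9% of all genes and 2 of the 10, Icam1 (0.00844) and Cd14 (-0.87, 0.0371), both in the same direction. The block thus raised the number of calls across the panel. Of the 12 T and NK cell markers, 7 on the low-fat and 9 on the high-fat diet were higher in CD34- cells in the fit without the block, beside the sums given above. Of the 4 monocyte and macrophage markers, Cd163 passed on the low-fat diet (-2.53, limma adjusted p = 0.00156) and 0 on the high-fat diet, where 2 were lower at an unadjusted p under 0.05. Of the 2 dendritic cell markers, Ccr7 was lower in CD34- cells on both diets (-1.55 and -0.80, limma adjusted p = 0.00119 on the low-fat and 0.0413 on the high-fat diet), while H2-Ab1 differed by -0.22 (0.815) and -0.35 (0.587). Neutrophil markers were higher in CD34- cells for 2 of 4 on each diet, with CD34+ sums of 56.2 to 113 on the low-fat and 70.4 to 158 on the high-fat diet against the CD34- sums given above. B cell markers were higher there for 2 of 3 on the high-fat diet and 0 of 3 on the low-fat diet, where 2 were higher at an unadjusted p under 0.05. Of the 4 fibroblast markers tested, 3 on the low-fat and 2 on the high-fat diet were lower in CD34- cells, with sums over the 5 on the panel of 277 to 701 and 571 to 5090 in CD34+ cells against the CD34- sums given above. The part of these cells in the population differences was not tested.

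**Figure D4:**
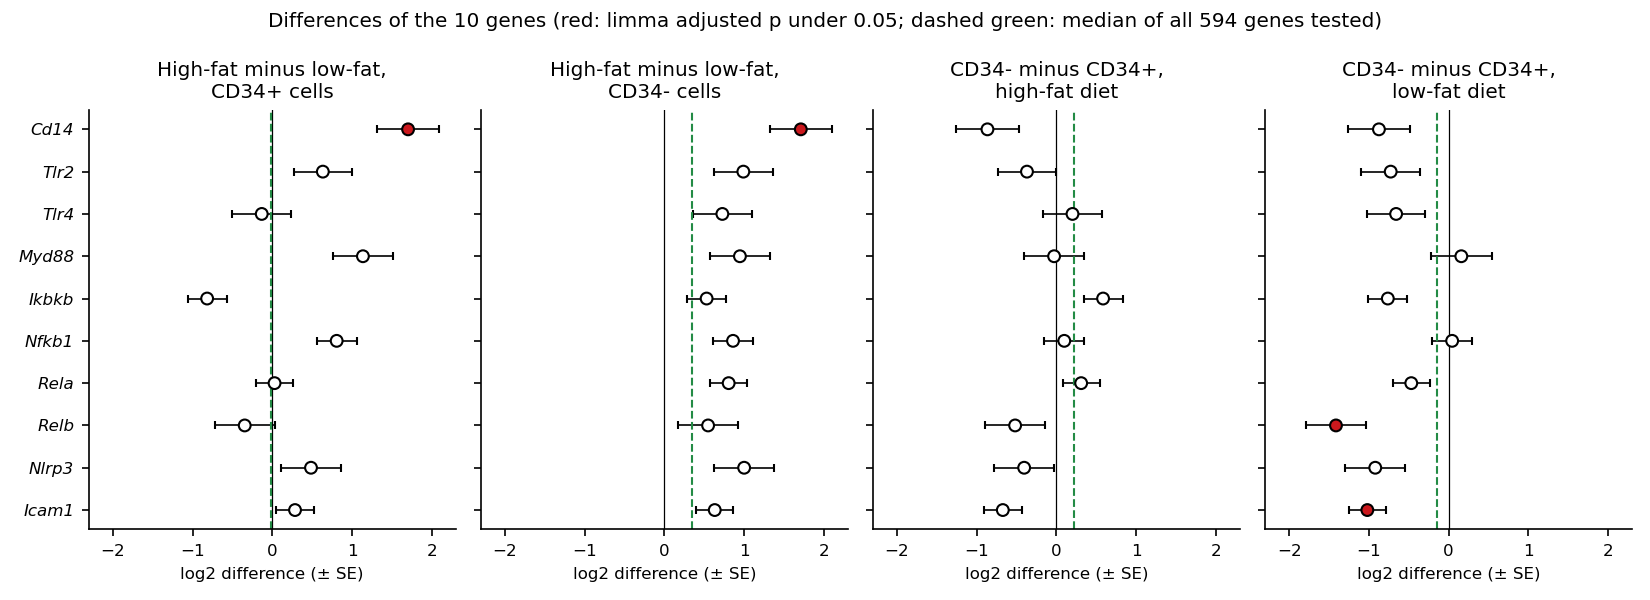
Log2 differences (horizontal axis, points) with their SE (bars) of the 10 genes in the diet comparisons of CD34+ and CD34- cells and in the population comparisons on the high-fat and low-fat diets. Red points passed at a limma adjusted p under 0.05, and the dashed green line is the median of all 594 genes. Cd14 is red in both diet panels, and Relb and Icam1 are red on the low-fat diet.

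Among other members of the pathway 1 gene passed in 1 comparison. Of a list of 51 further receptor, adaptor, kinase and NF-kB genes, 12 were on the panel and all 12 were tested: Tlr1, Tlr6, Tlr8, Irak3, Traf2, Traf6, Chuk, Nlrc4, Aim2, Card9, Irf3 and Cd36. Limma called 0 of the 12 in either diet comparison, while 1 was higher and 1 lower in CD34+ cells and 2 were higher in CD34- cells at an unadjusted p under 0.05. Traf6, a ubiquitin ligase downstream of MyD88, passed in the low-fat population comparison, with less in CD34- cells (-1.08 ± 0.30, limma adjusted p = 0.0317). Over the 12 the median diet difference was -0.34 in CD34+ and 0.41 in CD34- cells, and the median population difference 0.29 on the high-fat and -0.36 on the low-fat diet. Their all-gene counterparts were -0.01, 0.35, 0.21 and -0.14.

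Known NF-kB target genes were higher on the high-fat diet in part. Of a list of 30 such genes 15 were tested, and 4 of the 15 were higher in CD34+ and 4 in CD34- cells, in each case Il6, Cxcl1, Cxcl2 and Il10. Over all genes 2.36% and 5.05% passed in these comparisons, in either direction. At an unadjusted p under 0.05, 9 of the 15 were higher in each population, against 9.6% and 21.5% of all genes. In CD34+ cells 1 of the 15, Birc3, was lower at that threshold (-0.82, limma adjusted p = 0.101). The cytokine gene Il6 differed by 2.17 in CD34+ and 2.21 in CD34- cells (limma adjusted p = 0.0281 and 0.0119). The neutrophil-attracting chemokine genes Cxcl1 and Cxcl2 differed by 2.11 and 2.44 in CD34+ cells and by 2.97 and 2.64 in CD34- cells. Il10, which encodes a cytokine that restrains inflammation, differed by 2.31 and 2.18. The median difference of the 15 was 1.18 in CD34+ and 1.05 in CD34- cells, and it was -0.70 and -0.76 for the population comparisons on the high-fat and low-fat diets. Medians over all genes were -0.01, 0.35, 0.21 and -0.14 in the same order. Below their CD34+ level were 4 of the 15 on the low-fat diet, Ccl2 (-3.06), Cxcl1 (-2.55), the adhesion gene Vcam1 (-1.74) and Birc3 (-0.85), which encodes a regulator of NF-kB signalling. On the high-fat diet Cxcl1 was again below its CD34+ level (-1.69). Over all genes 9.76% passed on the low-fat and 8.92% on the high-fat diet, in either direction.

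Genes whose profiles over the 12 samples lay closest to those of the 3 genes that passed a test were found by the mean absolute difference of log2 values, each gene centred on its own mean. Closest to Cd14 were the integrin gene Itga5 (0.37), the docking protein gene Gab1 (0.41) and the cathepsin gene Ctsl (0.45), where the median gene lay at 0.92. Closest to Relb were Traf6 (0.23), Cyp27a1 (0.27), of cholesterol breakdown, and the thioredoxin gene Txn1 (0.28), with a median of 0.68. Closest to Icam1 were the co-stimulatory gene Cd86 (0.20), the protease gene Adam17 (0.23) and the motor protein gene Kif3a (0.24), with a median of 0.58. These distances describe 12 samples that share diets, populations and mice.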

How the data were processed

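The authors deposited log2 values of 760 genes in 12 samples, normalised per sample, from NanoString nCounter counts. Each column was log2 of whole counts plus a constant per sample: 98.0% to 99.7% of values were whole within 0.1. The source of that constant is not stated in the labels. The authors' deposited tables of selected genes hold centred log2 values, which matched the main table within 3.3e-10, and the authors' cluster number (unit: other), per the file headers.

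Log2 values were used as deposited. Tests covered the 594 genes that reached 20 in linear units in 3 or more samples, and 166 were left out. Means of 4 groups were fitted over all 12 samples in limma 3.58.1 (R 4.3.3, statmod 1.5.0) with a mean-variance trend. Tests were two-sided, and a Benjamini-Hochberg adjusted p under 0.05 over the 594 genes counted as passing. The model was checked on simulated data with independent samples, for the diet comparison in CD34- cells only. The other comparisons and a shared mouse were not simulated. Exact permutation of 3 against 3 cannot go below p = 0.1 and was not used.

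Numbers in the sample titles were checked as marks of a shared mouse. Deviations from the group means correlated at 0.31 to 0.43 across genes for the 6 same-numbered pairs of a diet and at -0.38 to 0.14 for other numbers. Same-numbered samples of a diet were therefore read as coming from the same mouse, which the labels do not state. What else such samples may share was not tested. The mouse inferred in this way was used as a random block, as an alternative (within-mouse correlation 0.448). Between diets same-numbered samples correlated at -0.17 to 0.17 and were not paired. Further alternatives were filters, scaling, the trend, the samples in the fit and each sample left out. Of these, the block with re-centring and the pair of libraries left out together were added after the data were seen.

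All 10 genes were named, then genes of the pathway and target lists that passed, and the 3 genes nearest to each member that passed. A target gene taken by this rule is not reported here. The members and lists were chosen with earlier results of these data known, so their counts are descriptions. Promoters and gene names came from RefSeq.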

Additional observations from a re-analysis of the deposited data

Results flagged for a closer look

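The diet groups of Ikbkb separated in opposite directions in the 2 populations, although neither diet change passed in the main fit. High-fat samples lay below low-fat samples in CD34+ cells and above them in CD34- cells, without overlap in either, and the diet changes differed by 1.35 ± 0.34 on the log2 scale. The same value is the population difference on the high-fat diet minus that on the low-fat diet, where CD34- samples lay above CD34+ samples on the high-fat diet and below them on the low-fat diet, again without overlap. Limma gave this difference an adjusted p of 0.334 over 594 genes, and 0.0431 with the mouse as a block. The median of all genes for the same quantity was 0.36, and the difference relative to it was 0.98. Taken by population, the diet change relative to the median of all genes was -0.81 in CD34+ cells and 0.18 in CD34- cells. The change of 0.53 in CD34- cells exceeded that of 63.6% of all genes, and its lowest value over the alternatives was 0.11. In that population 28.3% of all genes were higher on the high-fat diet without overlap. Leaving out 1 sample at a time, the lowest difference between the diet changes was 1.22. The limma adjusted p of these fits ranged from 0.112 to 0.868. Over all 20 alternatives the lowest difference was 0.86 and the highest limma adjusted p was 0.999.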

How the results depend on the processing

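Of the 50 differences of the 10 genes, 0 that passed changed sign under any alternative run, and 12 changed sign in at least 1 alternative while not passing. With each sample centred on its median, 0 of the 10 passed in either diet comparison and 0 between populations on the low-fat diet. Over all genes that fit called 13 for diet in CD34+ cells, 17 in CD34- cells and 58 between populations on the low-fat diet. With quantile normalization 0, 0 and 1 of the 10 passed, where 6, 13 and 57 of all genes passed. With no mean-variance trend 0 of the 10 passed for diet in CD34+ cells and 1 between populations on the low-fat diet. Of all genes 0 and 57 passed there. With only the groups of a comparison in the fit, 0 passed for diet in CD34+ cells, 2 for diet in CD34- cells (Cd14 and Nfkb1) and 1 between populations on the low-fat diet. Over all genes these fits called 0, 44 and 47, against 14, 30 and 58 in the main fit. With the mouse as a block 2 and 5 passed between populations on the high-fat and low-fat diets and 1 for the difference of the diet changes, and over all genes the calls went from 53 to 142, from 58 to 131 and from 0 to 7. The block changed no other call among the 10. With block and re-centring together the counts were 0 for diet in CD34- cells and 2 and 4 between populations, where 17, 122 and 127 of all genes passed. Leaving out 1 sample at a time gave 0 to 1 for diet in CD34+ cells, 0 to 2 for diet in CD34- cells, 0 to 1 and 0 to 2 between populations on the high-fat and low-fat diets, and 0 for the difference of diet changes. Leaving out both the shallowest library and high-fat CD34+ replicate 2 gave 4 for diet in CD34+ cells and 1 between populations on the high-fat diet, and on the low-fat diet Ikbkb passed in place of Relb. Over all genes, diet calls in CD34+ cells went from 14 to 0 with no trend or with only the groups of the comparison, to 6 with quantile normalization and to 54 without both libraries, and in CD34- cells from 30 to 17 with re-centring, to 13 with quantile normalization and to 49 without both libraries. With 1 sample left out at a time, calls over all genes were 0 to 29 for diet in CD34+ cells, 4 to 43 for diet in CD34- cells, and 0 to 78 and 26 to 69 between populations on the high-fat and low-fat diets. Diet calls were 0 in CD34+ cells without high-fat CD34- replicate 1, high-fat CD34+ replicate 1 or 3, or low-fat CD34+ replicate 1 or 2. In CD34- cells they were 4 without low-fat CD34- replicate 2, and 5 and 6 without high-fat CD34- replicates 3 and 1. Between populations on the high-fat diet they went from 53 to 35 with no trend, to 91 without both libraries, to 0 and 1 without high-fat CD34- replicates 1 and 2, and to 5 without high-fat CD34+ replicate 3. The cause of these shifts was not tested. Searching the whole 300-base window gave the searched form of the kappa B motif in 4 promoters against 3, with Myd88 added. Over all promoters the share went from 4.93% to 5.82%.

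With 3 mice per diet, adjusted p-values moved across 0.05 with single samples, and a gene that did not pass is not shown to be unchanged. Tlr4 rested on as few as 12 counts. Amplified counts are not independent molecules, so counting intervals understate the error.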
